A study of Mus musculus with 6 samples.

Results

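The regions described here were distant promoters of the same gene. In cap analysis of gene expression (CAGE), the capped 5′ end of each RNA is sequenced as a short tag, so that the tags at a position count the transcripts that start there. Annotated 5′ ends of protein-coding genes (GENCODE vM21, mouse build mm10) within 500 bp of each other on the same strand were merged into promoters, and tags within 500 bp of them were counted. Member promoters were chosen by their tags pooled over all 6 libraries: each had 200 or more, lay at least 2 kb from every other member promoter of its gene, and belonged to a gene with 2 or more of them. This gave 2799 promoters in 1250 genes, of 52546 annotated promoters in 21938 protein-coding genes. In all, 15168 promoters of 12819 genes had 200 or more tags, and 1793 genes had 2 or more such promoters at any distance. The pooled tags that chose the members are given as a description only. The split of a gene's tags between its promoters in each cell type was not used by the rule, although a promoter could pass 200 tags through 1 cell type alone.

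CAGE was run on nuclear RNA of a pair of mouse cell lines, with 3 libraries each. The mESCs were the embryonic stem cell line R08, cultured without feeder cells in medium with serum and leukemia inhibitory factor. The mOPCs were the line Oli-neu, a model of oligodendrocyte precursor cells, the cells that give rise to myelin-forming oligodendrocytes, expanded in proliferation medium with T3, L-thyroxine, bFGF and PDGF-BB. The labels give no further treatment, and each cell type was represented by 1 line. The labels do not say whether the 3 libraries came from separate cultures, so p-values measure the spread between libraries, which may be technical. The libraries of each cell type share 1 library code in the deposited tag names, so that preparation and cell type cannot be told apart.

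Library totals ranged from 16657021 to 40928704 tags. Of the 8 pluripotency markers, all had 96.2 to 1213 CPM (tags scaled to the total of the library) in mESCs and at most 0.451 in mOPCs. Olig1, Olig2, Sox10 and Cspg4, markers of oligodendrocyte progenitors, ranged from 86.4 to 609 in mOPCs and stayed below 1 in mESCs, whereas Nkx2-2 was at 0 in every mOPC library. Of the markers of differentiated oligodendrocytes, Mog was at 11.3 to 14 and Mag at 11.2 to 13.1 in mOPCs. Single markers of other cell types were also detected (Stmn2 at 269 to 295 and Gja1 at up to 85.7 in mESCs, Syt1 at 80.6 or more in mOPCs), and their part in the results was not tested.

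Many mammalian genes can be transcribed from several promoters. RNAs that start at different promoters carry different first exons, and where the start codon lies in such an exon the proteins differ at their amino terminus. An alternative promoter inside a gene can also give a short form that lacks the domains encoded upstream, and each promoter can respond to its own set of transcription factors, so that 1 gene is transcribed in several tissues from separate start sites. Long genes of the cytoskeleton and of signalling are known for such promoter arrays.

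The start regions of 3 genes are printed first, because together they show the 2 kinds of distant pair on which the results turn: a start used in both cell types paired with one used mostly in mOPCs (Clasp2), and starts each used mostly in 1 cell type (Tmem144, Dnmt3a). Each line holds 60 bases of the RefSeq sequence (GRCm38.p6, the same build as mm10), written 5′ to 3′ on the strand of the gene, from 50 bases before the position with the most pooled tags to 9 after it. The capitals mark that position and the base after it.

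Tmem144 upstream promoter, chr3:79852760-79852819, minus strand, used mostly in mOPCs: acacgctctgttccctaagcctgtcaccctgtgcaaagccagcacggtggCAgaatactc
Tmem144 downstream promoter, chr3:79842901-79842960, minus strand, used mostly in mESCs: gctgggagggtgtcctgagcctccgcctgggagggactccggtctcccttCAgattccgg
Clasp2 first promoter, chr9:113741421-113741480, plus strand, used in both: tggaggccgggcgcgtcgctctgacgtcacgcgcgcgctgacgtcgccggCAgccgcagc
Clasp2 second promoter, chr9:113793280-113793339, plus strand, used mostly in mOPCs: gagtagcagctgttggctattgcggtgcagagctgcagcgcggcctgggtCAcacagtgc
Dnmt3a upstream promoter, chr12:3807000-3807059, plus strand, used mostly in mOPCs: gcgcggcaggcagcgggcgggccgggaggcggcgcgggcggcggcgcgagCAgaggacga

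In all 5 printed stretches the capitals are a pyrimidine followed by a purine, the dinucleotide at which RNA polymerase II usually starts, with the purine as the first transcribed base. The same held for 760 of 867 member promoters (87.7%) whose most used position lay inside an available RefSeq sequence, and for 6202 of 6992 promoters with 200 or more tags (88.7%). The dinucleotide ended at the deposited position itself in only 12 of the 867 (1.38%). Most deposited positions thus lay 1 base upstream of the purine, on which the counts in windows of 500 bp do not depend; the cause was not tested. The CpG count of the 300 bp RefSeq sequence differed within each pair, with 37 CpGs at the first and 11 at the second Clasp2 promoter, and 3 at the upstream and 12 at the downstream Tmem144 promoter. A comparison of base composition over the members was void, because only 46.1% of the 2799 promoters had a RefSeq sequence.

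Most member genes had a pair of distant promoters. There were 1031 genes with 2 member promoters, 161 with 3, 43 with 4, 9 with 5, 5 with 6 and 1 with 7. Neighbouring member promoters of a gene lay a median of 15715 bp apart (quartiles 6034 and 45232 bp), with 37.6% of the 1549 neighbouring pairs under 10 kb and 150 pairs over 100 kb apart. The position with the most tags lay in exon 2 or later of another annotated transcript of the gene at 433 of the 2799 member promoters (15.5%). At these, starts and 5′ ends produced inside a spliced RNA cannot be told apart. Without such promoters, an alternative chosen after seeing the data, 971 genes were left, with 246 switches and 895 changes of usage. Windows of 81 member promoters in 78 genes overlapped a promoter window of another gene on the same strand, and their tags could belong to either gene. Just inside the limits, promoters of Zfp638, Kifc3 and Srpk2 had 200 pooled tags, and the pairs of Pcmtd2, Sema3b and Gabbr1 lay 2000, 2008 and 2010 bp apart. Just outside, promoters of Ephb3, Ncor1 and Peli1 had 199 tags, and pairs of P2rx3, Srebf1 and Gnas lay 1975, 1977 and 1983 bp apart.

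Tags were usually concentrated at 1 of a gene's promoters. In the 1143 genes with 20 or more tags at member promoters in every library, the share of a gene's promoter tags held by the leading member promoter had a median of 88.0% in mESCs and of 92.7% in mOPCs. It was above 90% in 529 genes in mESCs and in 625 genes in mOPCs. The most upstream member promoter led in 743 genes in mESCs and in 765 in mOPCs. Its share was higher in mOPCs in 543 genes and lower in 600. Among the 2576 member promoters of these genes, 576 (22.4%) stayed below 10% of the gene's tags in both cell types, and the most used position of 281 of those 576 lay in a later exon. The other 107 genes had too few tags in at least 1 library for this comparison; 62 of them had more tags in mESCs and 45 more in mOPCs.

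The share of tags per promoter varied little between libraries of a cell type. The median SD over 3 libraries was 0.835 percentage points in mESCs and 0.510 in mOPCs, and at 95% of promoters it was below 4.53 and 3.66 points. Between cell types the largest difference in share at a member promoter had a median of 15.9 points per gene, with quartiles of 3.75 and 44.7 points. It reached 10 points in 692 genes, 20 points in 513, 50 points in 250 and 80 points in 88. In 322 genes it stayed below 5 points. The libraries of the cell types did not overlap in share at 2243 of 2576 member promoters (87.1%), against 73.9% of 8517 promoters of all genes with 2 or more promoters and 20 or more tags in every library.

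**Figure D1:**
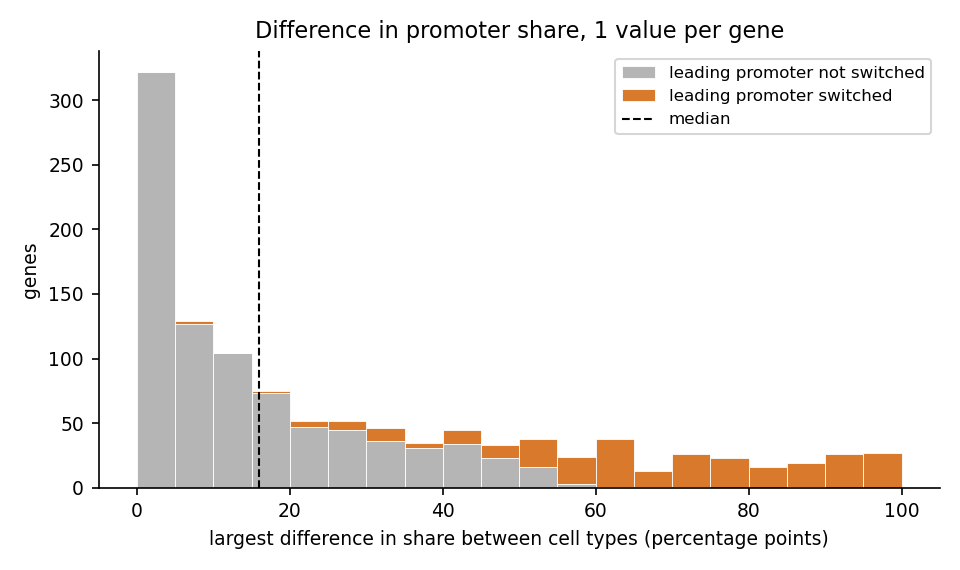
The x axis gives, for each of the 1143 genes compared, the largest difference in promoter share between mESCs and mOPCs in percentage points, and the y axis the number of genes per 5 points. Genes whose leading promoter was the same or unclear (grey) are piled up below 5 points. Genes with a switched leading promoter (orange) all lie above 5 points, and the dashed line marks the median of 15.9.

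Promoter usage, tested as a change in the split of a gene's tags, differed between mESCs and mOPCs in 1112 of 1250 member genes (edgeR quasi-likelihood fit with diffSpliceDGE, Benjamini-Hochberg adjusted p under 0.05 over all genes tested). The background was 2745 of the 3689 genes with 2 or more tested promoters, or 74.4%, against 88.96% of the member genes; members had to hold 200 tags at each of 2 promoters, which the others did not, and the part of depth in this was not tested. Of the 322 genes with less than 5 points of difference at member promoters, 232 passed the test as well. The test covered all tested promoters of a gene, also those that are not members. A call can therefore come from a promoter outside the members, and the size of change there is not given. The levels of single promoters also differed widely. Of the member promoters, 1377 (49.2%) were higher and 1220 (43.6%) lower in mOPCs, and 202 did not pass the test. Over all 19921 promoters tested, 41.9% were higher and 47.7% lower; over the 15168 with 200 or more tags these shares were 42.2% and 49%.

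In 388 member genes (31.0%) at least 1 member promoter was higher and another lower in mOPCs, against a background of 26.1% of the 3689 genes. The sets are not alike: the background counts all tested promoters of a gene, also near ones and those with few tags. The part of the member limits on tags and distance in this difference was not tested. All member promoters were higher in 380 genes and all lower in 315. The remaining 167 genes had at least 1 promoter that did not pass and none in the opposite direction. Among the 1031 genes with exactly 2 member promoters, the fitted log2 fold changes had the same sign in 662 genes (348 both positive, 314 both negative). They had opposite signs in 369, where the upstream promoter was the higher one in mOPCs in 221 genes and the downstream one in 148.

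**Figure D2:**
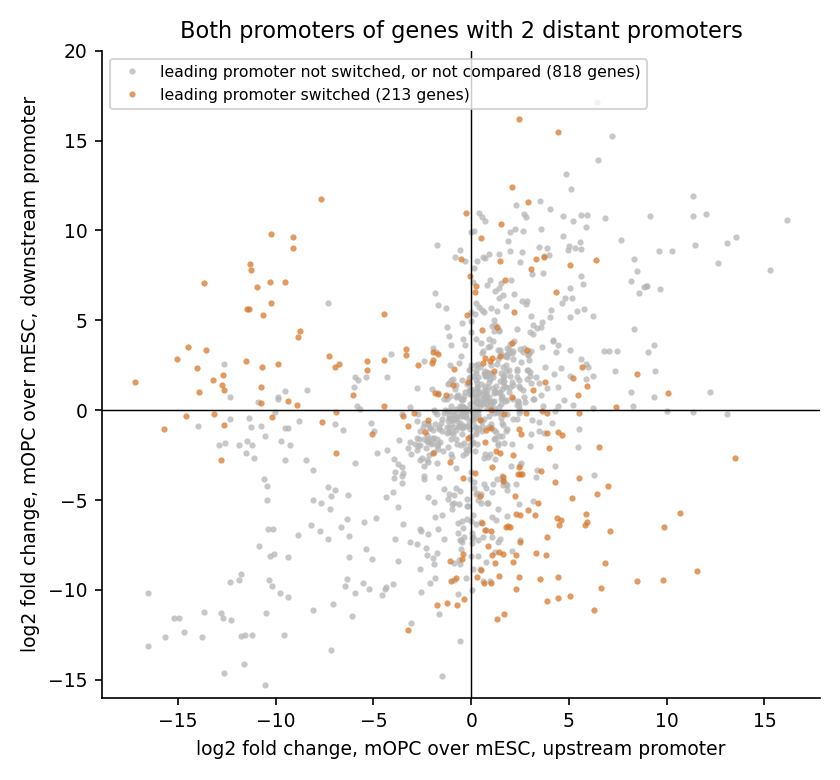
Each point is 1 of 1031 genes with 2 distant promoters, with the log2 fold change (mOPC over mESC) of the upstream promoter on the x axis and of the downstream promoter on the y axis. The signs are opposite in 369 genes (upper left and lower right), and 213 genes with a switched leading promoter are orange; values beyond about 10 belong to promoters with no or few tags in 1 cell type and depend on the prior count of the fit.

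A switch was counted where 1 member promoter held the most tags in every mESC library and another in every mOPC library, with changed usage in the test. This was so in 278 of 1143 genes (24.3%), against 391 of 3233 genes (12.1%) in the background, which counts all tested promoters of a gene, near ones and the members included. The sets are not alike: members had to hold 200 tags at each of 2 promoters, which could come from 1 cell type alone. Background genes did not, and the part of this rule in the difference was not tested. In 796 genes (69.6%) the same promoter led in all 6 libraries, and 69 genes met neither condition. Of the 278 switches, 147 went to a promoter upstream in mOPCs and 131 to a promoter downstream. The share of the promoter leading in mOPCs rose by a median of 63.8 points, from 7.17 in the smallest to 99.8 in the largest switch, and by at least 50 points in 215 genes. These shares are of tags at annotated promoters. Relative to all tags of the gene body, the stretch between the gene's ends on its strand, the median rise was 49.1 points, 131 of the 278 genes reached 50 points, and in 66 the rise was more than 1.5 times smaller. The leads themselves do not depend on the denominator. In 184 switched genes the promoters moved in opposite directions. In the other 94 no pair of member promoters passed in opposite directions, so that the lead changed there through unequal changes of the same sign or through 1 promoter.

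**Figure D3:**
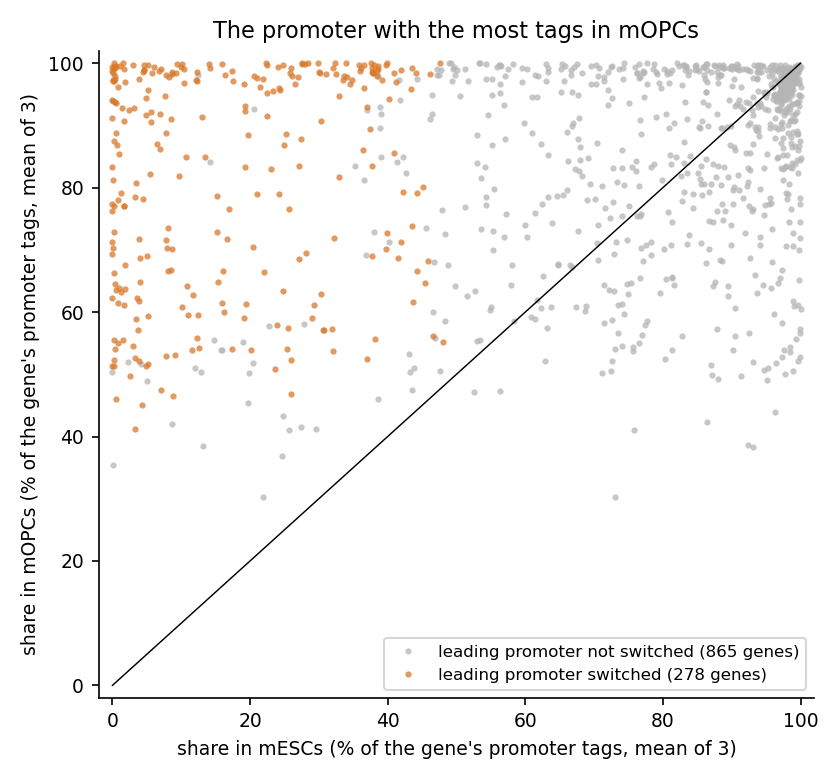
Each point is 1 of 1143 genes, placed by the share of the gene's promoter tags at the promoter that led in mOPCs, in mESCs on the x axis and in mOPCs on the y axis (% of tags, mean of 3 libraries). The 278 switched genes (orange) lie at the left, below 50% in mESCs, and many of the 865 others (grey) lie near the upper right corner, where 1 promoter held nearly all tags in both cell types; the line marks equal shares.

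Switched genes differed from the others in distance by their medians: 24684 bp lay between the leads of the cell types, against 15938 bp between the top pair of promoters in the 865 genes that did not switch. The total CPM of a gene's promoters changed less than 2-fold between cell types in 97 of 278 switched genes (34.9%) and in 386 of 865 others (44.6%). Among the switched genes, 107 had totals at least 2-fold higher in mOPCs and 74 in mESCs. Complete coding transcripts were annotated at both leads in 142 switched genes. Their coding starts differed in 73 (51.4%) and were shared in 69. Where they differed, the longest annotated protein was longer for the mOPC lead in 42 genes and for the mESC lead in 31, with a median absolute difference of 84 residues. In the genes that did not switch, the top pair of promoters had different coding starts in 188 of 314 genes (59.9%). These are descriptions without a test.

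The 8 largest switches to an upstream promoter, with at least 100 tags in every library, were found in Tmem144, Prune2, Ank3, Sgk3, Trim2, Large2, Foxp1 and Sarm1. Passing the usage test was part of the definition of a switch and adds no support (edgeR adjusted p from 2.16e-66 in Ank3 to 5.43e-38 in Sarm1). The share of the promoter leading in mOPCs did not overlap between cell types in any of them, which the choice by size made likely.

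Tmem144 encodes a membrane protein, and its leads lay 9.859 kb apart, as printed above. The upstream promoter had 100, 123 and 168 tags in the mOPC libraries and none in the mESC libraries, where 0 of 2162 tags allowed a share of up to 0.139%. The downstream promoter had 1098, 487 and 575 tags in mESCs and 0, 0 and 4 in mOPCs. At annotated promoters, nearly all tags were therefore at the downstream start in mESCs and at the upstream start in mOPCs. Relative to all tags of the gene body, the upstream promoter held 87.1% in mOPCs. The promoter total of the gene was 29.8 CPM in mESCs and 4.36 in mOPCs.

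Prune2, in contrast, kept a similar total of 91.6 CPM in mESCs and 110 in mOPCs. Its upstream promoter had 1, 1 and 0 tags in mESCs and 2310, 3240 and 4401 in mOPCs, or 0.0327% ± 0.034 and 98.4% ± 0.075 of the gene (SD, n = 3). Its downstream promoter, 180.656 kb away, held 92.3% ± 0.63 in mESCs and 0.174% ± 0.034 in mOPCs. The longest protein annotated from the upstream start had 3084 residues and that from the downstream start 323.

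Sgk3, a serine/threonine kinase, switched over 50.170 kb without a change of its annotated coding start. The upstream promoter had 152, 67 and 67 tags in mESCs and 1389, 1902 and 2808 in mOPCs, and the downstream one 4698, 2097 and 2421 against 2, 2 and 4. The upstream promoter was 3.90 ± 0.12 (SE) higher in mOPCs on the log2 scale (edgeR adjusted p = 1.3e-44). Both promoters led to an annotated protein of 496 residues.

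Trim2, an E3 ubiquitin ligase, and Large2, a glycosyltransferase of dystroglycan, had lower totals in mOPCs, where the lead lay upstream. Trim2 was at 117 CPM in mESCs and 8.93 in mOPCs, and its upstream promoter rose from 0.798% ± 0.054 to 96.1% ± 1.7 of the tags. Relative to all tags of the gene body the Trim2 difference was 47.5 points in place of 95.3. The mESC lead of Trim2 lay in a later exon of another transcript. In Large2 the upstream promoter held 4.65% ± 0.84 in mESCs and 99.6% ± 0.32 in mOPCs. Sarm1, an enzyme that consumes NAD in degenerating axons, had 121, 131 and 167 tags at its upstream promoter in mOPCs and 31, 16 and 15 in mESCs. The Sarm1 promoter 13.954 kb downstream had 546, 238 and 257 tags in mESCs and 1, 1 and 3 in mOPCs.

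The 8 largest switches to a downstream promoter were found in Pstpip2, Crip2, Tmbim1, Tns1, Col18a1, Wdtc1, Zfp462 and Ash2l. The share of the promoter leading in mOPCs rose to between 97.1% and 100% in them, from at most 5.19% in mESCs. Passing the usage test was again part of the choice (edgeR adjusted p from 1.12e-59 in Ash2l to 2.12e-42 in Crip2).

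Ash2l, a core subunit of histone methyltransferase complexes, had the highest total among these in mESCs (703 CPM). Its upstream promoter had 25094, 10964 and 12686 tags in mESCs and 11, 15 and 14 in mOPCs. The promoter 6.858 kb downstream had 1190, 499 and 625 tags in mESCs and 2137, 2483 and 3489 in mOPCs, a rise of 1.31 ± 0.09 (SE) on the log2 scale (edgeR adjusted p = 7.88e-23). The downstream start was thus used in both cell types, and the upstream start almost only in mESCs.

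Zfp462, a zinc finger protein, and Wdtc1, a WD repeat protein, showed the same arrangement. The upstream promoter of Zfp462 had 3514, 1685 and 1840 tags in mESCs and none in mOPCs, which allowed a share of up to 0.0528%, while the downstream one had 176, 67 and 104 against 1435, 1658 and 2534. The pair lay 2.996 kb apart, and with all gene body tags as denominator the difference in share was 49.8 points in place of 94.3. In Wdtc1 the upstream promoter had 5934, 2235 and 2502 tags in mESCs and none in mOPCs (up to 0.0465%), although its most used position lay in a later exon of another transcript.

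Tns1 encodes tensin, which ties integrins to actin at focal adhesions, and Col18a1 a collagen of basement membranes. The most upstream Tns1 promoter held 63.7% ± 3.2 of the tags in mESCs and had none in mOPCs, which allowed up to 0.0352%. A promoter 128.264 kb downstream of the next member rose from 0.351% ± 0.12 to 97.9% ± 0.27. Col18a1 was at 180 CPM in mESCs and 22.3 in mOPCs, and the lead moved 77.042 kb downstream, to a promoter with 5, 4 and 1 tags in mESCs and 487, 579 and 922 in mOPCs. Relative to all tags of its gene body, the Col18a1 difference was 40.5 points in place of 97.0. Crip2, a LIM domain protein, had a pair only 2.341 kb apart. The longest annotated proteins of these promoters had 208 and 84 residues, but transcripts of both also shared an annotated coding start. In Tmbim1 and Pstpip2 the lead held nearly all tags at annotated promoters in each cell type. The leads lay 8.854 kb apart in Tmbim1 and 4.687 kb apart in Pstpip2. The most used position of the mOPC lead of Tmbim1 lay in a later exon of another transcript. Relative to all tags of the gene body, the mOPC lead of Pstpip2 held 72.1% in mOPCs.

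Of 15 listed genes of chromatin and DNA methylation, 7 were members. All 7 were compared and passed the usage test, 2 switched and 3 had a difference of 20 points or more (Dnmt3a, Tet1 and Kdm2b). Over all member genes 88.96% passed, and of the compared ones 24.3% switched and 44.9% reached 20 points. The median of the largest difference over the 7 was 13.8 points, beside 15.9 over all compared genes.

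Dnmt3a encodes a de novo DNA methyltransferase with a long form and a short form that lacks the amino terminus. The upstream promoter, whose start is printed above, had 45, 15 and 17 tags in mESCs and 317, 398 and 541 in mOPCs, and its share rose from 1.72% ± 0.26 to 61.1% ± 1.4. The promoter 84.773 kb downstream, with its most used position at base 3891823 of chromosome 12, had 1893, 865 and 793 tags in mESCs and 1, 1 and 5 in mOPCs. Relative to all gene body tags the rise was 31.2 points in place of 59.4. The longest annotated proteins were 908 residues for the upstream start and 689 for the downstream one. The upstream promoter rose by 3.54 ± 0.17 (SE) on the log2 scale (edgeR adjusted p = 3.45e-31).

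Tet1, which oxidises methylated cytosine, had 4 member promoters. The most upstream of them had 28141, 13171 and 15232 tags in mESCs and 3, 2 and 0 in mOPCs. The next, 5.442 kb downstream, fell from 226 ± 11 to 21.3 ± 1.9 CPM. The most downstream one rose from 8.09 ± 0.58 to 34.6 ± 1.7 and held 61.5% ± 2.7 of the mOPC tags. The total of the gene was 1031 CPM in mESCs and 56.2 in mOPCs, and the most downstream promoter was the only member of Tet1 that was higher in mOPCs.

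Kdm2b, a histone demethylase that binds CpG islands, kept its lead. Its first promoter rose from 39.1% ± 0.83 to 84.9% ± 0.54 of the tags. A promoter 67.176 kb downstream held nearly as much in mESCs, 37.2% ± 0.89. It had 814, 385 and 404 tags in mESCs and 1, 0 and 0 in mOPCs. The gene totals were 59.6 CPM in mESCs and 68.4 in mOPCs.

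Of 32 listed transcription factors, 10 were members, 6 were compared and 9 passed the usage test. Switches were found in 5 (Foxp1, Satb1, Tcf12, Zeb2 and Nfia), and Nfic had over 20 points of difference without a switch. Nr5a2, Sox6, Nfix and Zeb1 had too few tags in some libraries. Of the 26 member promoters of the list, 20 were higher and 6 lower in mOPCs. Over all member promoters 49.2% were higher and 43.6% lower, 88.96% of the member genes passed the usage test and 24.3% of the compared ones switched.

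Foxp1, a forkhead factor, moved its lead 494.429 kb upstream. The upstream promoter had 75, 17 and 32 tags in mESCs and 2489, 3229 and 4736 in mOPCs. The mESC lead had 1020, 551 and 578 tags in mESCs and 15, 41 and 60 in mOPCs, and another promoter 98.180 kb further downstream fell as well. At annotated promoters, the mOPC tags of Foxp1 thus came from its most upstream member promoter, and the mESC tags mostly from those inside the gene. Relative to all tags of the gene body the upstream promoter held 0.317%, 1.41% and 3.00% in mESCs and 17.6%, 66.1% and 67.7% in mOPCs. The difference was then 48.9 points in place of 93.5, and replicate 1 was the lowest library of both cell types.

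Tcf12 and Zeb2 rose from every member promoter, by unequal amounts. Tcf12 is a basic helix-loop-helix factor that pairs with cell type-specific partners. Its upstream promoter rose from 23.8 ± 1.4 to 90.9 ± 0.4 CPM and the one 215.760 kb downstream from 0.956 ± 0.24 to 155 ± 23, so that the upstream share went from 95.1% ± 0.66 to 36.5% ± 3.4. The annotated proteins had 706 residues for the upstream start and 536 for the downstream one. Zeb2, a zinc finger homeobox repressor, had 3, 4 and 2 tags at its second promoter in mESCs and 2812, 3312 and 5428 in mOPCs. That promoter lay in a later exon of another transcript. With all gene body tags as denominator the difference was 37.6 points in place of 58.0 in Tcf12, and 31.6 points in Zeb2, where it had been 1.54% ± 0.78 against 55.5% ± 2.4 of promoter tags.

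Nfia and Nfic are members of the nuclear factor I family. In Nfia the second promoter, 5.222 kb downstream, held 45.1% ± 4.3 in mESCs and 80.1% ± 1.1 in mOPCs, on 53, 17 and 27 tags in the mESC libraries. With windows of 100 bp in place of 500 bp the difference in its share was -2.20 points, so that the Nfia switch depended on the window, and it was 11.6 in place of 35.0 with all gene body tags as denominator. In Nfic the share of the leading promoter rose from 45.6% ± 4 to 73.5% ± 0.74. Satb1, which organises chromatin, had 153, 87 and 106 tags at its upstream promoter in mESCs and 1, 7 and 4 in mOPCs. The promoter 20.026 kb downstream had 17, 10 and 11 tags in mESCs and 54, 94 and 112 in mOPCs. Most mOPC tags of Satb1 lay outside its promoters (83.1% of gene body tags), and with these in the denominator the difference in share was 5.88 points in place of 58.5.

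Of 27 listed genes of the cytoskeleton and its scaffolds, 19 were members, and all 19 were compared and passed the usage test. A switch was found in 10 and a difference of 20 points or more in 14, with a median of 43.6 points for the largest difference. Over all member genes 88.96% passed the usage test, and of the compared ones 24.3% switched and 44.9% reached 20 points. The list was drawn up with known promoter arrays and earlier results of these data in view, so its counts are no independent evidence.

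Ank3 encodes ankyrin-G, which anchors membrane proteins to spectrin. Its middle promoter had 2, 2 and 3 tags in mESCs and 3982, 4981 and 7646 in mOPCs, or 97.2% ± 0.085 of the mOPC tags. The promoters 307.485 kb upstream and 219.493 kb downstream of it held 18.1% ± 2.5 and 79.9% ± 3.1 in mESCs and 0.313% ± 0.06 and 0.159% ± 0.059 in mOPCs. At annotated promoters, each cell type therefore used its own Ank3 starts, with hardly any in common. Of the gene body tags of Ank3, 11.3% in mESCs and 30.1% in mOPCs lay outside its promoters. The middle promoter held 67.9% of them all in mOPCs.

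Sptbn1 encodes β-spectrin, the partner of ankyrin. The most downstream promoter had 32827, 22269 and 21477 tags in mESCs and 2, 11 and 10 in mOPCs. The most upstream one held 5.67% ± 0.59 in mESCs and 92.2% ± 0.9 in mOPCs, and it was 1.55 ± 0.20 (SE) higher in mOPCs on the log2 scale (edgeR adjusted p = 0.00022). The annotated proteins had 2363 residues for the upstream start and 2154 for the downstream one.

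Dmd encodes dystrophin, and promoters inside the gene give shorter forms of it. The upstream member promoter had no tags in mESCs, which allowed a share of up to 0.0699%, and 1317, 1651 and 2082 tags in mOPCs. The one 971.675 kb downstream, the longest distance between leads of a switched gene, had 2085, 1005 and 1197 tags in mESCs and 205, 326 and 481 in mOPCs. The promoter total of the gene was 60.1 CPM in mESCs and 67.3 in mOPCs. Relative to all gene body tags the upstream promoter held 50.7% in mOPCs.

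Epb41, protein 4.1 of the membrane skeleton, had 1553, 685 and 732 tags at its upstream promoter in mESCs and none in mOPCs, which allowed a share of up to 0.102%. The promoter 26.225 kb downstream was used in both, at 17.6% ± 1.7 and 97.2% ± 0.75. Syne1, a giant protein of the nuclear envelope, had leads 408.189 kb apart. The downstream one had 55, 80 and 89 tags in mOPCs and none in mESCs (up to 0.465%). In mOPCs 99.3% of the gene body tags of Syne1 lay outside its promoters, so that this lead held only 0.502% of them.

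Clasp2 stabilises growing microtubule ends. Its first promoter had 5053, 2066 and 2443 tags in mESCs and 1712, 2621 and 4075 in mOPCs, with a log2 fold change of -0.71 ± 0.09 (SE; edgeR adjusted p = 2.63e-11). The second promoter, 51.859 kb downstream, had 39, 33 and 31 tags in mESCs and 7719, 10930 and 14825 in mOPCs. Its share rose from 1.2% ± 0.41 to 79.2% ± 1.8, while the first promoter remained in use.

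**Figure D4:**
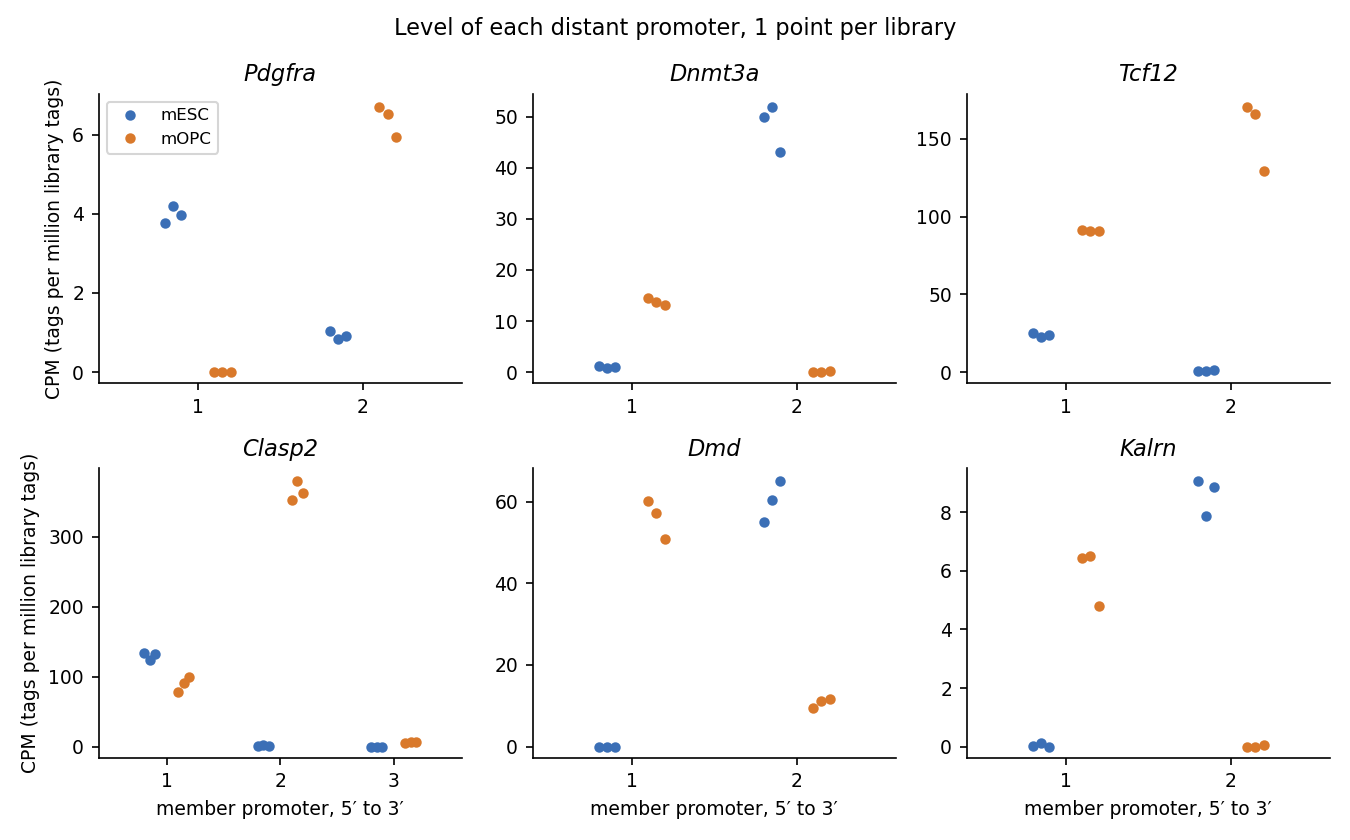
The y axis gives CPM at each member promoter, ordered 5′ to 3′ on the x axis, with 1 point per library (mESC blue, mOPC orange) and a scale of its own for each gene. In Dnmt3a and Kalrn each promoter was high in 1 cell type only, in Clasp2 and Tcf12 the first promoter was used in both and the second in mOPCs, and in Pdgfra and Dmd 1 promoter had no tags in 1 cell type.

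Of 28 listed signalling genes, 12 were members, 10 were compared and 12 passed the usage test. A switch was found in 5 (Kalrn, Pde4d, Arhgef2, Mapk8ip1 and Pdgfra) and a difference of 20 points or more in 7. Over all member genes 88.96% passed, and of the compared ones 24.3% switched and 44.9% reached 20 points. Pde4b and Nrxn2 had too few tags in some libraries.

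Pdgfra is the receptor for PDGF, a mitogen of oligodendrocyte precursors, and it was low in both cell types. Its total was 5.41, 5.70 and 5.43 CPM in mESCs and 8.57, 8.60 and 7.82 in mOPCs. The upstream promoter had 143, 70 and 73 tags in mESCs and none in mOPCs, which allowed a share of up to 0.397%. The promoter 3.568 kb downstream had 39, 14 and 17 tags in mESCs and 147, 188 and 243 in mOPCs, and it rose by 2.55 ± 0.19 (SE) on the log2 scale (edgeR adjusted p = 1.53e-20). The downstream start was thus used in both cell types and the upstream one detected in mESCs only, with the same annotated protein of 1089 residues for both. Relative to all gene body tags the rise of the downstream share was 33.4 points in place of 59.7.

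Kalrn and Trio are related activators of small GTPases. The upstream Kalrn promoter had 1, 2 and 0 tags in mESCs and 141, 188 and 197 in mOPCs, and the promoter 477.509 kb downstream 343, 131 and 163 against 0, 0 and 2. Of the gene body tags of Kalrn, 59.4% in mESCs and 82.6% in mOPCs lay outside its promoters, and the upstream promoter held 15.5% of them in mOPCs. In Trio the first promoter stayed the most used one on average, by a small margin, at 38.6% ± 0.86 in mOPCs. A promoter 237.302 kb downstream, with 2, 1 and 0 tags in mESCs, held 37.8% ± 2.9 in mOPCs. In mOPC replicate 2 this downstream promoter led, with 3162 tags against 2919 at the first. The pair of shares in mOPCs lay within the spread of the libraries. The change in share of the first Trio promoter was -53.8 points, and -15.3 with all gene body tags as denominator and -34.2 with windows of 100 bp.

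Arhgef2, another such activator, rose from all 3 member promoters, with a total of 65.9 CPM in mESCs and 456 in mOPCs. The increase came mostly from a promoter with 111, 71 and 63 tags in mESCs and 7764, 10565 and 16520 in mOPCs, whereas the mESC lead 4.730 kb downstream changed by only 0.22 ± 0.09 (SE) on the log2 scale (edgeR adjusted p = 0.0196). Mapk8ip1, a scaffold of the JNK pathway, was similar: its first promoter was at 16.5 ± 1.7 and 18 ± 0.73 CPM and did not pass the test (edgeR adjusted p = 0.645), while the second went from 0.294 ± 0.047 to 60.7 ± 5.3. The difference in share of the second was 75.3 points, and 41.3 with windows of 100 bp. Pde4d, a phosphodiesterase that degrades cAMP, had a lower promoter total in mOPCs (19.6 CPM, 71.5 in mESCs). The 2 upstream member promoters held 47.3% ± 4.4 and 34.3% ± 3.7 of its tags in mESCs, and the one after them rose from 3.45% ± 0.45 to 80.7% ± 0.77. Most tags of the Pde4d gene body lay outside its promoters (62.5% in mESCs and 88.6% in mOPCs), and relative to all of them the rise was 7.96 points in place of 77.3.

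**Figure D5:**
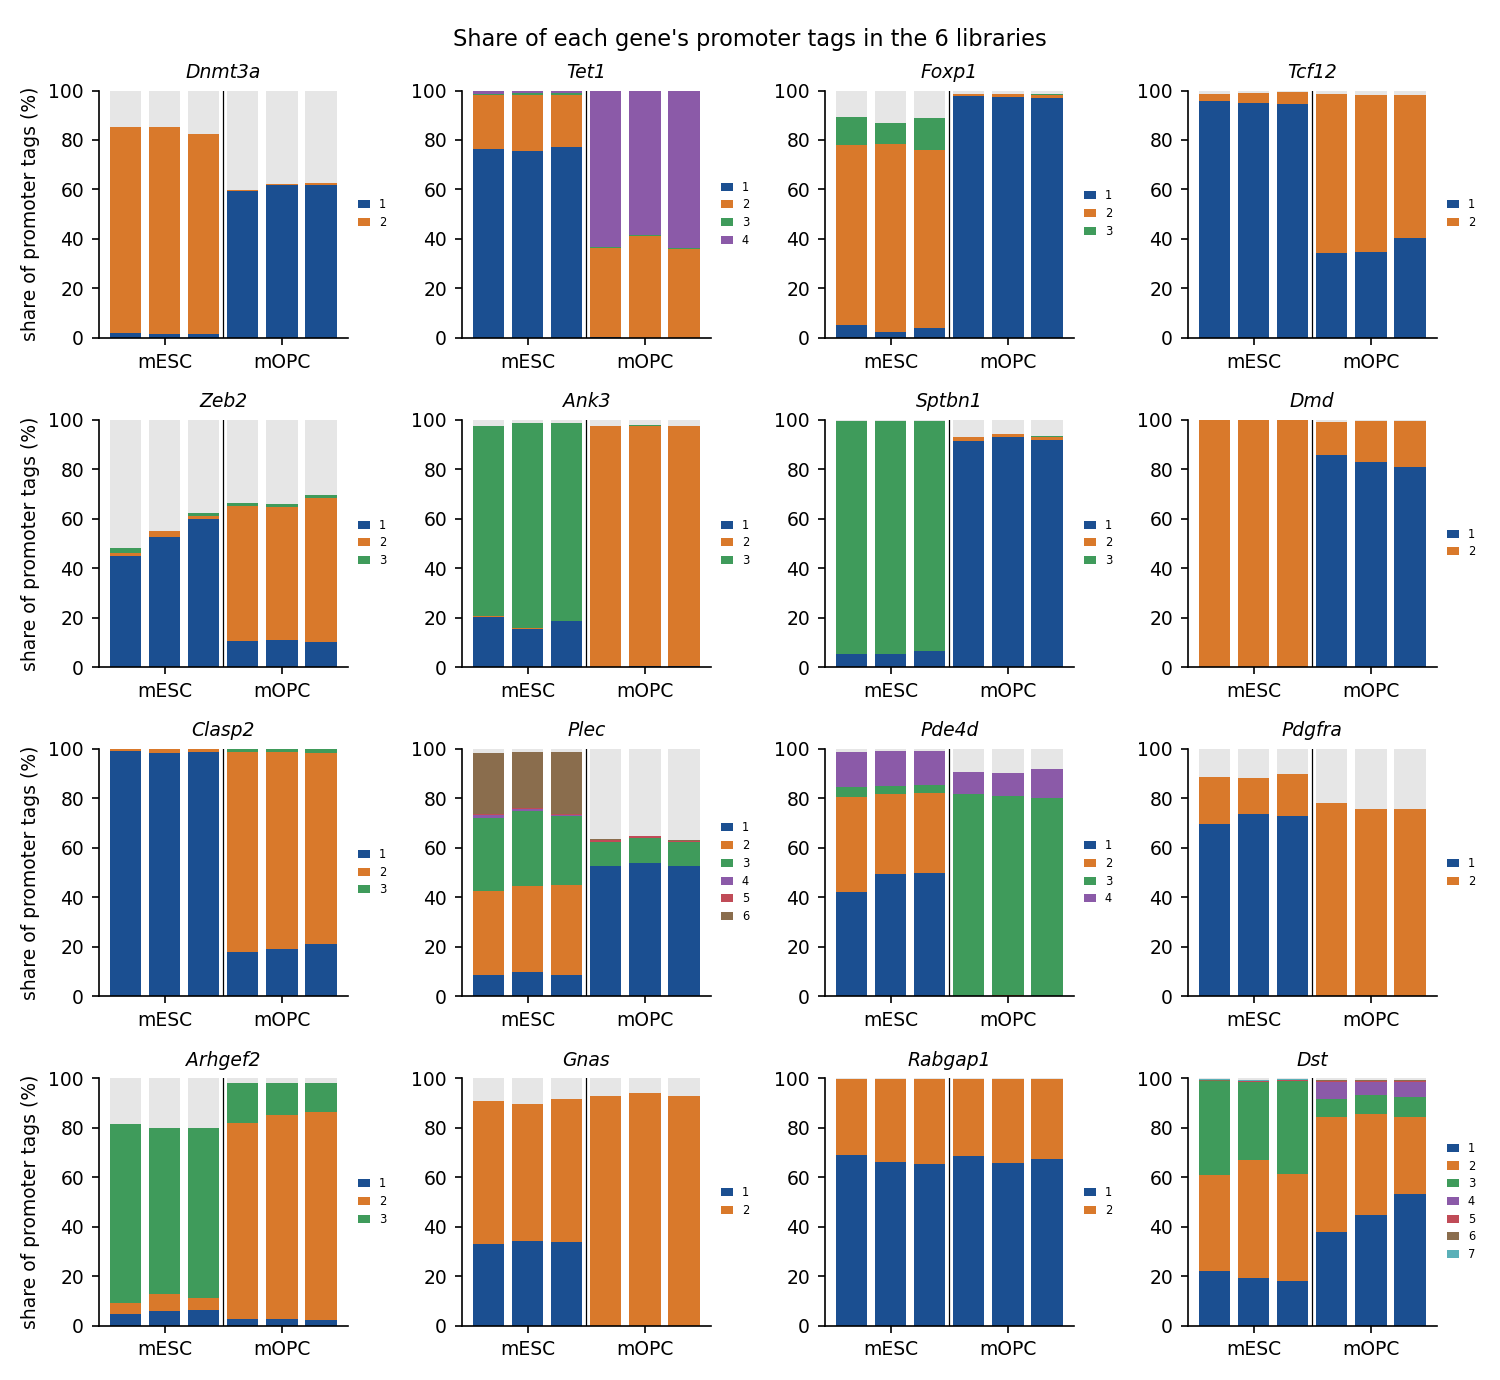
Stacked bars give the share of each gene's promoter tags (y axis, %) at its member promoters, numbered and coloured from 5′ to 3′, in the 3 mESC and the 3 mOPC libraries (x axis) of 16 named genes; light grey is the share of promoters that are not members. The split is nearly the same within a cell type, changes at the line between them in all but Rabgap1, and varies most between mOPC libraries in Dst.

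Of 10 listed imprinted genes, Gnas and Impact were members. Gnas encodes the stimulatory G protein alpha subunit and other proteins from separate starts. The promoter in front of its 394-residue form held 57% ± 1.3 of the mESC tags and 93.3% ± 0.61 of the mOPC tags, and one 44.807 kb upstream had 1043, 446 and 525 tags in mESCs and none in mOPCs (up to 0.0098%). Both lay in a later exon of another transcript. In Impact, a regulator of translation, the leading promoter fell from 92.6% ± 0.32 to 68.7% ± 0.32 of the tags and the most upstream one rose from 2.46% ± 0.4 to 20.7% ± 0.86. Of 12 listed genes of myelin and glia, Nfasc and Qk were members. Both passed the usage test without reaching 20 points, and 4 of their 5 promoters were higher in mOPCs. The shares over all members were 88.96% of genes for the usage test and 49.2% of promoters for a higher level in mOPCs.

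In 322 of the 1143 genes compared the largest difference was under 5 points, as given above, and 3 genes with an even split and the smallest differences are named here. The first promoter of Rabgap1, which acts on Rab GTPases, held 66.8% ± 2 in mESCs and 67.3% ± 1.6 in mOPCs, with overlapping libraries and no change of usage in the test (edgeR adjusted p = 0.863). Dlgap4, a synaptic scaffold, had 62.3% ± 0.39 and 60.6% ± 2.2 at its first promoter (edgeR adjusted p = 0.467), although both promoters rose, with a total of 56.2 CPM in mESCs and 144 in mOPCs. In Rnf44, a RING finger protein, the leading promoter had 58.4% ± 2 and 58.6% ± 1.8. The usage test was passed (edgeR adjusted p = 0.00432), with the most downstream promoter at 0.861% ± 0.21 and 1.59% ± 0.38. Without mOPC replicate 3 the test was not passed, and the difference in share of its upstream promoter turned from -0.94 to 0.235 points without mESC replicate 3.

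The genes with the most member promoters were Dst with 7, and Dync1h1 and Plec with 6 each. Dst, a spectraplakin that links cytoskeletal filaments, used 3 of its promoters in mESCs at 19.8% ± 2, 43.2% ± 4.6 and 35.8% ± 3.7. In mOPCs these held 45.4% ± 7.7, 39.3% ± 7.8 and 7.73% ± 0.34, and the next promoter, with 4, 0 and 1 tags in mESCs, held 5.99% ± 0.85. The first promoter of Dst had 38.0%, 44.9% and 53.4% in the mOPC libraries and the second 46.4%, 40.6% and 31.0%, so that the lead itself differed between libraries. With all gene body tags as denominator the change at the promoter that held 35.8% in mESCs was -17.3 points in place of -28.1.

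Plec, a linker of intermediate filaments, used 3 promoters in mESCs at 34.9% ± 1.3, 29.3% ± 1.4 and 24.2% ± 1.3. In mOPCs the first and the last of these fell to 0.0154% ± 0.012 and 0.08% ± 0.0079, and the most upstream promoter rose from 9.11% ± 0.81 to 53.1% ± 0.56. In Dync1h1, the heavy chain of cytoplasmic dynein, the first promoter held 99.2% ± 0.21 in mESCs and 99.4% ± 0.07 in mOPCs. The other 5 member promoters each held less than 0.3% on average, with 0.472% as the highest value in a library, and all lay in later exons, although all 6 were lower in mOPCs, with a total of 3052 CPM in mESCs and 245 in mOPCs.

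Tags also fell in member genes outside all promoter windows. They made up 8.68% to 9.61% of the tags on the strand of these genes in the mESC libraries and at least 16.6% in the mOPC libraries. Every mOPC library lay above every mESC library. Among 40 named genes, the denominator of all gene body tags moved the difference in share by more than 1.5 times in 16, as given beside them; the source of the tags outside promoters was not tested. After tags expected from the density of those outside promoters had been subtracted, the median of the largest difference in share was 19.2 points. That median covered 1020 genes, against 1143 in the main comparison, so the sets of genes differ.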

How the data were processed

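Nuclear CAGE was available for 3 R08 mESC and 3 Oli-neu mOPC libraries. The deposited values are counts: the authors gave, for each library, how many tags began at each base and strand of mm10, without normalization. Per the methods of the study, reads were split by barcode, trimmed and aligned, and unique alignments were kept. The sources disagree on the aligner: the methods name bowtie for CAGE, and the submitters' processing notes name BWA 0.5.9, with CASAVA 1.8. Depth ranged from 16657021 to 40928704 tags per library, and PCR copies were not told apart, so limits from 0 counts (3 tags) cover counting error only.

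Annotated 5′ ends of protein-coding GENCODE vM21 genes within 500 bp were merged, and counts were summed within 500 bp of them; overlapping windows of a gene met halfway. The share of a promoter is its tags over the tags of all annotated promoters of the gene. CPM are tags scaled to all tags of the library. The usage test and the promoter test used edgeR 4.0.16 (filterByExpr, TMM, robust quasi-likelihood fit, diffSpliceDGE) in R 4.3.3 on all 6 libraries, with adjusted p under 0.05. Python 3.11.15 was used for counting, with pandas 2.3.3 and numpy 2.4.6, and matplotlib 3.10.9 for figures. With 3 libraries against 3, no exact permutation p can be below 0.1, so none is given. In simulated counts, all promoters but 200 had the same mean in both cell types, and those 200 had 200 or more pooled tags. The usage test (3371 genes) recovered 200 of 200 planted changes of 2 on the log2 scale. Of its 219 calls 19 were false (8.68%), above the nominal 0.05. The promoter test (19105 promoters) recovered 200 with 9 of 209 false (4.31%). In the data most promoters differed, so these rates do not carry over to the calls given here.

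Members and gene lists were chosen with earlier results of these data known. Named genes were the 8 largest switches in each direction (100 or more member tags in every library, no shared window), list genes with a switch or at least 20 points of difference (at most 6 a list), 3 genes with the most even and least changed split, and the 3 genes with the most member promoters. The replicate numbers did not pair the libraries. Alternatives were another normalization (RLE), DESeq2 1.42.0 with limma 3.58.1, no filter, other windows and member limits, other transcripts, and each library left out in turn. The RNA–chromatin interactions were not analysed here. Of the marker genes, 1 is not reported here.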

Additional observations from a re-analysis of the deposited data

How the results depend on the processing

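Member limits set the counts. With members of 1000 or more pooled tags, usage differed in 465 genes, the lead switched in 165, 590 promoters were higher and 405 lower, and 149 genes had promoters in opposite directions. With only promoters that held 10% of the gene's tags in a cell type, 906 promoters were higher and 787 lower. With protein-coding transcripts of complete start only, usage differed in 653 genes, 817 promoters were higher and 624 lower, and 241 genes had opposite directions. With windows of 100 bp, 802 promoters were lower. Fewer promoters and genes qualify by construction under these limits. The median of the largest share difference was 18.9 points with all tags of the gene body as denominator, over 1143 genes. It was 19.2 points after subtraction of background, over a smaller set of 1020 genes. The cause of these changes was not tested. Leaving out each library in turn gave 1073 to 1108 genes with changed usage, 282 to 287 switches, 1326 to 1417 promoters higher and 1192 to 1234 lower, 376 to 396 genes with opposite directions, and a median difference of 15.7 to 16.3 points.

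Among 40 named genes, 692 values kept their direction and side of the threshold, but not always their size: with all gene body tags as denominator the share difference moved by more than 1.5 times in 16 genes, most in Syne1 (0.502 in place of 69.3 points), Satb1 (5.88 in place of 58.5) and Pde4d (7.96 in place of 77.3). The share difference was -2.20 points in Nfia and 0.890 in Rnf44 with windows of 100 bp, and between -1.57 and 0.235 in Rnf44 with each library left out in turn; it was positive without mESC replicate 3, and the usage test was not passed without mOPC replicate 3. The replicate block gave 1107 genes with changed usage, 278 switches, 1373 promoters higher, 1220 lower and 387 genes with opposite directions. Same-numbered libraries did not deviate together (correlations -0.011, 0.0284 and -0.00428), so the numbers were not read as a pairing.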
